A study of Mus musculus with 12 samples.

Results

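Cutaneous squamous cell carcinomas (SCC) of wild-type mice were compared with untreated wild-type skin across the microRNAs (miRNAs) of the deposited table. The comparison used 5 of the 12 libraries of the series. The wild-type skin group held 3 libraries of dorsal skin from C57Bl6 mice, 4 weeks old, shaved and otherwise untreated. The wild-type tumour group held 2 libraries of SCC from C57Bl6 mice over 35 weeks old that had received ultraviolet radiation (UVR), 2.5 kJ/m2, 3 times a week. Neither group carried an engineered allele, and the other 7 libraries came from TAp63-/- mice, 3 of skin and 4 of SCC, which here served to estimate the spread between libraries and to test whether the tumour effect differed by genotype. Age, UVR exposure and tumour state changed together between the wild-type groups, so their effects cannot be told apart. Each library had its own source name, but the labels do not name a mouse for each, so the p-values rest on the spread among these libraries alone, part of which may be technical.

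A miRNA is cut from a hairpin whose 5′ and 3′ arms can each yield a mature strand (5p and 3p). An Argonaute protein usually keeps a single strand and the rest is degraded, and the kept strand pairs with messenger RNAs mainly through its seed, bases 2 to 8, so miRNAs with the same seed share predicted targets. In skin, miR-203 and miR-205 are abundant in keratinocytes, the cells from which SCC arises, and miR-21 and the miR-17-92 cluster are among the miRNAs best known for rising in tumours.

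The sequences printed here are those of miRNAs on which the results turn, with seed partners, some of them not called, shown for comparison. They are mature mouse miRNAs from RefSeq (GRCm38.p6), written 5′ to 3′ with the seed in capitals. The arms of the miR-21a hairpin, which rose by unequal amounts, and 3 of the 5 tested members of the miR-92 seed family are shown first.
miR-21a-5p: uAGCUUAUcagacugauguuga
miR-21a-3p: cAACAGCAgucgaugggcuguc
miR-92a-3p: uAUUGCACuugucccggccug
miR-25-3p: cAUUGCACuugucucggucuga
miR-363-3p: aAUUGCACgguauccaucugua

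The next set holds the miR-99 and miR-100 family and the miR-10 family, whose members share a seed but did not pass the test together.
miR-100-5p: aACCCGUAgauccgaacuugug
miR-99a-5p: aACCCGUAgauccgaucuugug
miR-99b-5p: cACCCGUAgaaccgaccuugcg
miR-10b-5p: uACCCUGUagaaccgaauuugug
miR-10a-5p: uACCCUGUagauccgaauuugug

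The last set holds a keratinocyte miRNA, a skeletal muscle miRNA and 4 further miRNAs described below, of which miR-5130 and miR-6538 are rich in G and C.
miR-205-5p: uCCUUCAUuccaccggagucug
miR-206-3p: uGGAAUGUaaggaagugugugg
miR-193a-3p: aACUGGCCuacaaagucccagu
miR-146a-5p: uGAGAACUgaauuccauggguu
miR-5130: cUGGAGCGcgcgggcgaggcaggc
miR-6538: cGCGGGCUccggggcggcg

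Values are the authors' quantile-normalised log2 values, in which each rank has the same value in every library and low values were set to a floor of 3.32. Read counts were not used here, and depth can be read only from how many miRNAs passed the floor, which was 390 to 433 in wild-type skin and 402 to 420 in the wild-type tumours. Of 1251 rows, 544 were tested, and 490 of these were above the floor in at least 1 wild-type library. The tissue labels were checked on marker miRNAs. The keratinocyte miRNA miR-203-3p lay between 17.40 and 18.21 in all 5 libraries, and the liver miRNA miR-122-5p was at the floor in all of them. Skin also held miRNAs of striated muscle, described below.

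In the wild-type tumours 48 of the 544 miRNAs were higher (8.82%) and 51 were lower (9.38%) at an adjusted p under 0.05 (limma, Benjamini-Hochberg), which is what "called", "rose" and "fell" mean here. In all 99 the values of the tumours and of skin did not overlap; over all 544 miRNAs both tumours were above every skin library in 112 and below every one in 126. The differences were large: 96 of the 99 were at least 2-fold, while a further 87 miRNAs differed by at least 2-fold and were not called. The median difference over all 544 was 0.00, a value that the normalisation and the miRNAs at the floor largely set. Over the 334 miRNAs above the floor in all 5 libraries it was -0.14. WT SCC replicate 1 decided many calls. Without it 32 miRNAs were called, of which 28 were among the 99, and without WT skin replicate 1 or 2 the count was 65 or 61. The sign of all 99 was kept in each of these fits. Leaving out each of the 12 libraries in turn, 25 miRNAs were called every time, 9 higher and 16 lower, and the description leads with these. Of the 16, miR-299a-5p and miR-299b-5p have identical rows and are 1 measurement. Of the 9, miR-20b-5p passed the floor in both wild-type tumours and in no other library. A miRNA was tested if it passed the floor in 2 or more libraries, and that filter was not repeated in each fit. With either wild-type tumour left out miR-20b-5p would fail it, so its place among the 25 does not show a stable call. Fitted on the 5 wild-type libraries alone, 62 miRNAs were called, 42 of the 99 among them. Of the 25, 20 were called in that fit, and miR-1a-3p (adjusted p = 0.0634), miR-133a-5p (0.0711), miR-338-3p (0.06), miR-409-5p (0.0678) and miR-20b-5p (0.0642) were not.

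**Figure D1:**
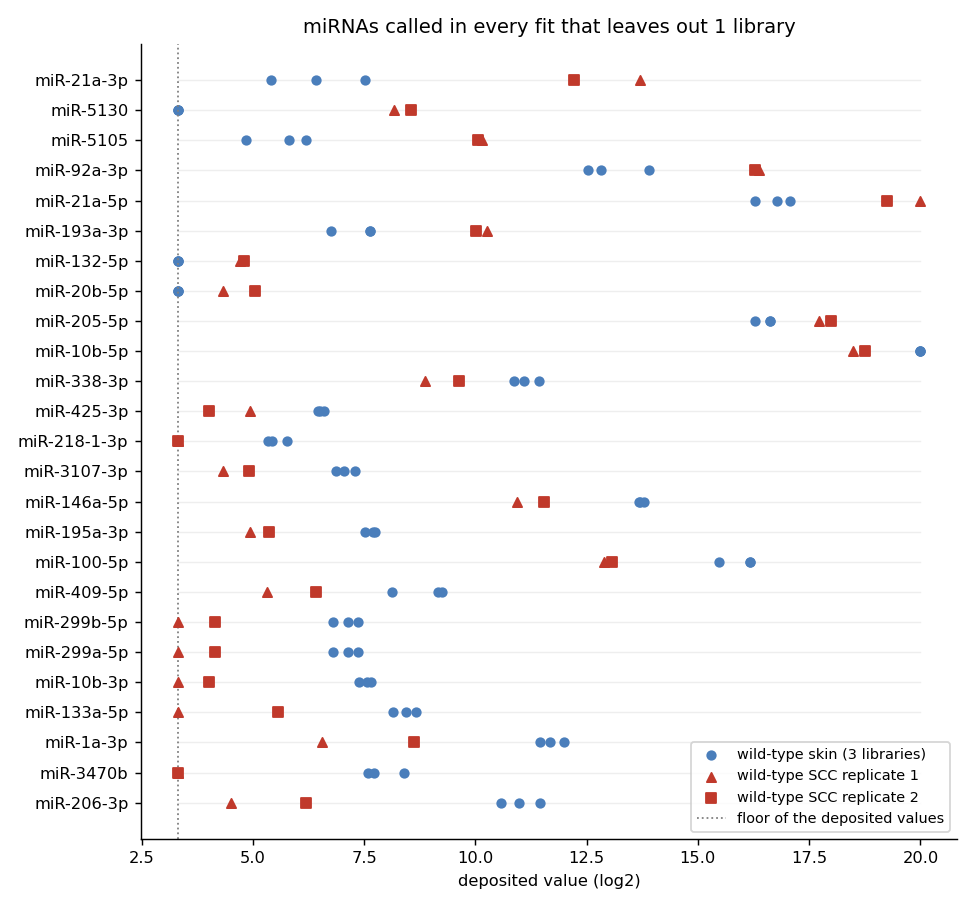
Deposited log2 values (horizontal axis) of the 25 miRNAs that were called in each of the 12 fits that left out 1 library, ordered by the difference between groups. Circles are the 3 wild-type skin libraries, and the triangle and the square are WT SCC replicates 1 and 2. The dotted line is the floor of 3.32. In every row both tumours lie on the same side of all 3 skin libraries. miR-20b-5p is included because the filter on low values was not repeated in each fit.

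Both arms of miR-21a, an oncogenic miRNA induced in many carcinomas, rose. Its main strand, miR-21a-5p, had values of 16.29, 17.07 and 16.78 in the 3 skin libraries and 19.999 and 19.25 in the tumours. It moved from rank 17, 11 and 13 in skin to rank 1 and 2 in the tumours, a difference of 2.91 ± 0.45 (log2, SE; 7.52-fold, adjusted p = 0.00203). The minor strand, miR-21a-3p, had values of 6.42, 5.42 and 7.51 in skin and 13.70 and 12.22 in the tumours. This was the largest difference among the 99, 6.51 ± 0.68 (91.4-fold, adjusted p = 0.000261). The top value of 19.999 is fixed by the normalisation, so the rise of a miRNA that reaches the first rank cannot read higher. The hairpin lies at chr11:86584067-86584158 on the minus strand (mm10), inside an exon of a Vmp1 transcript.

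Of the 6 tested miRNAs of the squamous tumour list 2 rose, both from miR-21a, and the list's median difference was 3.04. The share that rose over all 544 miRNAs was 8.82%. miR-31, which promotes keratinocyte proliferation, had values of 13.08, 12.59 and 12.002 in skin and 15.72 in each tumour for its 5p arm. The groups did not overlap, but the difference of 3.17 ± 1.04 missed the threshold (adjusted p = 0.0563), as did that of miR-31-3p, 3.71 ± 1.32 (adjusted p = 0.0789). miR-135b-5p, reported in several carcinomas, was at the floor in the 3 skin libraries and in WT SCC replicate 2, and at 8.46 in WT SCC replicate 1. The hypoxia-induced miR-210-3p had values of 11.15 to 11.50 in skin and 12.25 and 12.07 in the tumours (0.85 ± 0.61, adjusted p = 0.38), and miR-155-5p was at the floor in all 5 libraries.

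The miR-17-92 cluster and its paralogs, which drive proliferation and are targets of MYC and E2F, rose in part. Of 12 tested guide strands 5 were called, all higher, where 8.82% of all 544 miRNAs were called higher. One of the 5, miR-20b-5p, was at the floor in the other 10 libraries of the series and passed the filter on low values through the 2 wild-type tumours alone, so its call was set by that filter; of the other 11, 4 rose, none fell, and the median difference was 1.01. Of 9 tested passenger strands 2 were at the floor in all 5 wild-type libraries, and of the other 7, 2 rose, with a median of 0.79. The difference of miR-363-3p, 0.60, turned to -0.85 without WT SCC replicate 2. miR-92a-3p led, with 12.82, 12.53 and 13.91 in skin and 16.37 and 16.29 in the tumours (3.24 ± 0.46, 9.46-fold, adjusted p = 0.0016). Its hairpins lie at the end of Mir17hg at chr14:115044427-115044506 and in the paralog cluster at chrX:52741838-52741928, and the mature strand does not tell them apart. miR-20b-5p, from the X-linked cluster, was at 4.32 and 5.04 in the tumours, just above the limit of the table.

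The other members of these clusters changed less or varied more. miR-18a-5p had 8.76, 8.58 and 7.41 in skin and 11.07 and 10.44 in the tumours (2.50 ± 0.65, adjusted p = 0.0213). Its call was lost without WT SCC replicate 1 (adjusted p = 0.192) and without WT skin replicate 3 (0.0718). miR-20a-5p rose by 1.47 ± 0.35 and miR-25-3p, from the cluster in Mcm7, by 1.01 ± 0.27. Without WT SCC replicate 1 these had adjusted p-values of 0.0937 and 0.235, and miR-25-3p was also not called without WT skin replicate 1 (0.0607) or 2 (0.0959). In the wild-type libraries alone miR-18a-5p (0.082), miR-20a-5p (0.0841) and miR-25-3p (0.083) were not called. miR-17-5p (0.97 ± 0.39, adjusted p = 0.113), miR-19a-3p (1.91 ± 0.62, 0.0544), miR-19b-3p (1.01 ± 0.57, 0.263) and miR-93-5p (0.82 ± 0.27, 0.0522) were not called. Among the alternatives that kept all libraries, miR-93-5p had an adjusted p as low as 0.0344 and miR-19a-3p, with median-ratio scaling, 0.0357. Of the 11 tested miRNAs of the chromosome 14 cluster, at chr14:115043671-115044506, miR-19b-1-5p was at the floor in all 5 libraries. Leaving it and miR-92a-3p out, the differences of the other 9 ran from 0.53 in miR-17-3p to 2.50 in miR-18a-5p.

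**Figure D2:**
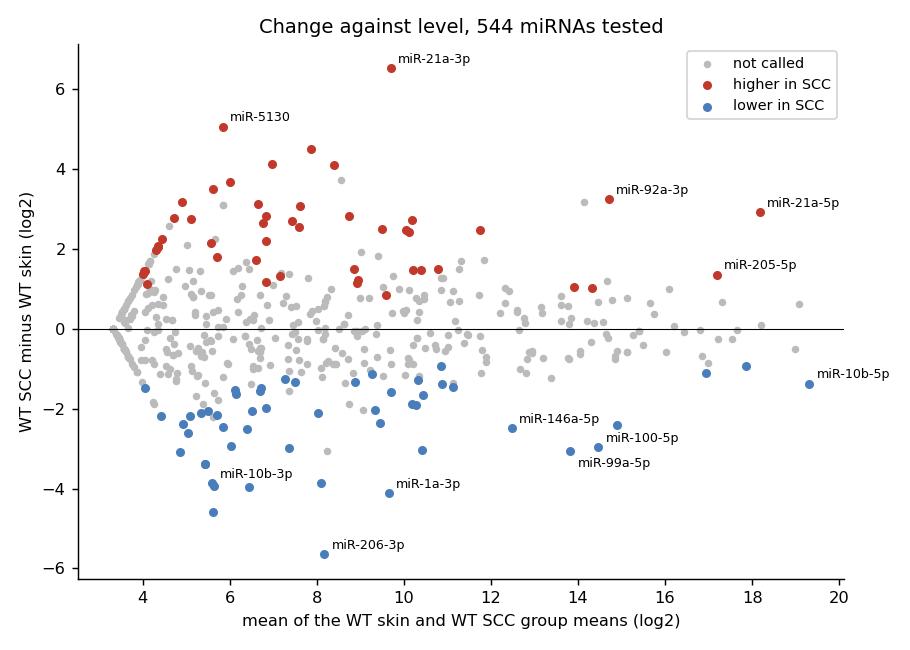
Difference between the wild-type tumour and skin means (log2, vertical axis) against the mean of the 2 group means (log2, horizontal axis) for the 544 miRNAs tested. Red points are the 48 miRNAs called higher in SCC, blue points the 51 called lower and grey points the rest; miR-21a-5p and miR-10b-5p sit at the right edge on opposite sides of 0, and miR-21a-3p and miR-206-3p are the extremes.

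Among epithelial miRNAs, miR-205-5p rose while its neighbours in the lists did not pass the test. miR-205-5p, a p63-linked miRNA that supports keratinocyte stem cells, had 16.62, 16.29 and 16.62 in skin and 17.72 and 17.999 in the tumours (1.35 ± 0.29, 2.56-fold, adjusted p = 0.00846). Its hairpin lies at chr1:193507463-193507530 on the minus strand, in an exon of the long noncoding RNA 4631405K08Rik. miR-203-3p, which promotes keratinocyte differentiation, differed by -0.27 ± 0.33 (adjusted p = 0.641; 95% interval -0.98 to 0.44). The corneal and epidermal miR-184-3p had 6.12 to 7.33 in skin and 4.52 and 4.49 in the tumours, a difference of -2.21 ± 0.83 that was not called (adjusted p = 0.0893). Of the 6 keratinocyte miRNAs and of the 7 p63-linked miRNAs only miR-205-5p rose, none fell, and the list medians were -0.04 and 0.24. Among all 544 miRNAs 8.82% rose and 9.38% fell. The p63-linked list includes miR-30c-2-3p (-0.41 ± 0.51, adjusted p = 0.651) and miR-497-5p (-0.71 ± 0.30, 0.126), 2 miRNAs that the study itself selected in this mouse series, so their place in the list is no independent evidence. Of the 5 miR-200 family guides, which maintain the epithelial state, and of the 9 let-7 family guides, which oppose growth, none was called, with medians of -0.15 and -0.03.

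miR-193a-3p was a further miRNA called in every fit. It had 7.63, 6.75 and 7.63 in skin and 10.27 and 10.01 in the tumours, and rose by 2.81 ± 0.47 (7.002-fold, adjusted p = 0.00256). Its seed partner miR-193b-3p, from another locus, differed by -0.47 ± 0.36 (adjusted p = 0.409).

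Among the largest falls were those of striated muscle miRNAs. miR-206-3p, specific to skeletal muscle, had 10.57, 11.45 and 10.98 in skin and 4.52 and 6.19 in the tumours (-5.65 ± 0.66, 50.2-fold lower, adjusted p = 0.000557). miR-1a-3p fell by 4.12 ± 0.67 and miR-133a-5p by 3.97 ± 0.60, neither of them called in the wild-type libraries alone. Of the 6 tested muscle miRNAs 5 fell, with a list median of -3.20, where 9.38% of all 544 miRNAs fell. miR-133a-3p (-2.42 ± 0.63) and miR-133b-3p (-2.35 ± 0.49) were not called without WT SCC replicate 1 (adjusted p = 0.258 and 0.105), and miR-133a-3p was also not called without WT skin replicate 1 (0.0531), 2 (0.0601) or 3 (0.0555). In the wild-type libraries alone their adjusted p-values were 0.175 and 0.104. The member that was not lower, miR-499-5p of slow and cardiac muscle, was at the floor in skin and in WT SCC replicate 1 and at 4.15 in WT SCC replicate 2, and miR-208b-3p was at the floor in all 5 libraries. The summed level of the list was 16.16 to 16.29 in skin, 12.53 in WT SCC replicate 1 and 14.94 in WT SCC replicate 2. In bulk tissue, fewer cells of a type and less RNA per cell cannot be told apart, and the part of muscle content in the other falls was not tested.

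miR-100-5p and miR-99a-5p, which share a seed and repress the kinase mTOR, fell by similar amounts. miR-100-5p had 16.17, 16.17 and 15.49 in skin and 12.89 and 13.08 in the tumours (-2.96 ± 0.38, 7.80-fold lower, adjusted p = 0.000853). miR-99a-5p had 15.88, 15.78 and 14.41 in skin and 11.45 and 13.13 in the tumours (-3.07 ± 0.63, adjusted p = 0.00798), and was not called without WT SCC replicate 1 (adjusted p = 0.104) or in the wild-type libraries alone (0.108). The third family member, miR-99b-5p, had 18.21, 17.72 and 16.29 in skin and 17.07 and 16.02 in the tumours, so the groups overlapped (-0.86 ± 0.61, adjusted p = 0.376). The hairpins of the pair that fell lie in introns of noncoding host genes, at chr9:41531425-41531504 and, in Mir99ahg, at chr16:77598936-77599000.

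miR-10b-5p, which is encoded among the Hoxd genes in an intron at chr2:74726070-74726137, held rank 1 in each skin library. It stood at 19.999 there and at 18.49 and 18.75 in the tumours, which is rank 4 and rank 3 (-1.38 ± 0.22, 2.60-fold lower, adjusted p = 0.00232). Its minor strand, miR-10b-3p, fell from 7.56, 7.66 and 7.38 to the floor in WT SCC replicate 1 and 4.02 in WT SCC replicate 2 (-3.87 ± 0.40, adjusted p = 0.000261). The skin value of miR-10b-5p is the top value fixed by the normalisation, so its fall may be understated and cannot be compared with that of miR-10b-3p. miR-10a-5p, with the same seed and from the Hoxb cluster, had rank 2 in skin and in WT SCC replicate 1 and rank 5 in WT SCC replicate 2 (-0.52 ± 0.56, adjusted p = 0.584).

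miR-146a-5p, which dampens NF-kappaB signalling and is also present in leukocytes, had 13.67, 13.70 and 13.79 in skin and 10.93 and 11.54 in the tumours (-2.49 ± 0.39, 5.61-fold lower, adjusted p = 0.00203). Its seed partner miR-146b-5p differed by -0.68 ± 0.44 (adjusted p = 0.331). Of the other 5 tested leukocyte miRNAs none was called and 4 had a positive difference. miR-142-3p had 10.04 to 10.51 in skin and 11.42 and 11.64 in the tumours (1.26 ± 0.46, adjusted p = 0.0859, and 0.0387 in the wild-type libraries alone), and the myeloid miR-223-3p differed by 0.94 ± 0.50 (adjusted p = 0.238). The summed level of the leukocyte list was 16.05 to 16.24 in skin and 15.58 and 16.31 in the tumours, which overlapped. Of the 4 tested red cell miRNAs 1 was called, higher, where 8.82% of all 544 miRNAs were called higher. The erythroid miR-451a rose by 2.47 ± 0.73 (adjusted p = 0.0374), a call that was lost without WT SCC replicate 1 (0.314), any 1 of the WT skin libraries (0.0732 to 0.0989), or TAp63-/- skin replicate 1 (0.0501) or SCC replicate 4 (0.0506), in the wild-type libraries alone (0.0711), and with every miRNA above the floor in at least 1 library tested (0.0549). miR-144-3p (1.82 ± 0.63, adjusted p = 0.0708) and miR-144-5p (0.57 ± 0.68, 0.641), from the same cluster, were not called, nor was miR-486-5p (-0.58 ± 0.61, 0.581). miR-144-3p was called without TAp63-/- SCC replicate 1 (0.0253) or 3 (0.0347). The summed level of the red cell list overlapped, with 15.19 to 15.76 in skin and 14.63 and 15.87 in the tumours.

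Of the 2 melanocyte miRNAs and of the 4 tested neural and glial miRNAs 1 each was called, both lower. Since 9.38% of all 544 miRNAs were called lower, 1 call in a list this small is no result about the list. miR-204-5p, found with miR-211 in pigment cells, had 11.89, 11.73 and 12.15 in skin and 8.07 and 9.72 in the tumours (-3.03 ± 0.59, adjusted p = 0.00648), and its call was lost without WT SCC replicate 1 (0.0927) and in the wild-type libraries alone (0.0678). miR-211-5p had 11.20, 10.27 and 8.72 in skin and 6.33 and 9.75 in the tumours, so the groups overlapped (-2.02 ± 1.04, adjusted p = 0.221). The sum of the pair was 12.18 to 12.59 in skin, 8.45 in WT SCC replicate 1 and 10.73 in WT SCC replicate 2. miR-338-3p, of oligodendrocytes and other glia and encoded in an Aatk intron, fell from 10.87, 11.10 and 11.42 to 8.86 and 9.63 (-1.88 ± 0.32, adjusted p = 0.00256). The glial miR-219-5p had a positive difference, with both tumours above skin (1.18 ± 0.47, adjusted p = 0.113), and the neuronal miR-9-5p (-1.01 ± 0.64, 0.319) and miR-128-3p (-0.88 ± 0.40, 0.171) were not called. Of the 8 fibroblast and smooth muscle miRNAs 1 was called, lower, with a list median of -0.29, a count near the share of 9.38%. Of the 2 endothelial miRNAs none was called (median 0.39).

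The imprinted Dlk1-Dio3 locus on chromosome 12, whose many miRNAs are transcribed from the maternal allele, was represented by a list of 53 tested miRNAs. Of these 12 fell and none rose, 38 had a negative and 9 a positive difference, and the median was -0.56. Over all 544 miRNAs 51 fell (9.38%), and 260 had a negative and 230 a positive difference. With 10 further tested miRNAs that RefSeq places in the locus, none of them called, the median of the 63 was -0.45. miR-299a-5p had 7.37, 7.14 and 6.81 in skin, the floor in WT SCC replicate 1 and 4.15 in WT SCC replicate 2 (-3.37 ± 0.58, adjusted p = 0.00277). Its row is identical to that of miR-299b-5p, which is outside the list. miR-409-5p fell by 2.99 ± 0.47 (adjusted p = 0.00203; 0.0678 in the wild-type libraries alone). Of the tested miRNAs placed in the locus, 4 of 14 at chr12:109585789-109595388, 0 of 4 at chr12:109611500-109618336 and 8 of 38 at chr12:109709060-109747960 were called. The median of the middle group was 0.50. Neighbours differed widely in the last group, where miR-299a-3p, from the same hairpin as miR-299a-5p, differed by -0.19 ± 0.42. The summed level of the list was 16.001 to 16.21 in skin, 14.85 in 1 tumour and 15.57 in the other.

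**Figure D3:**
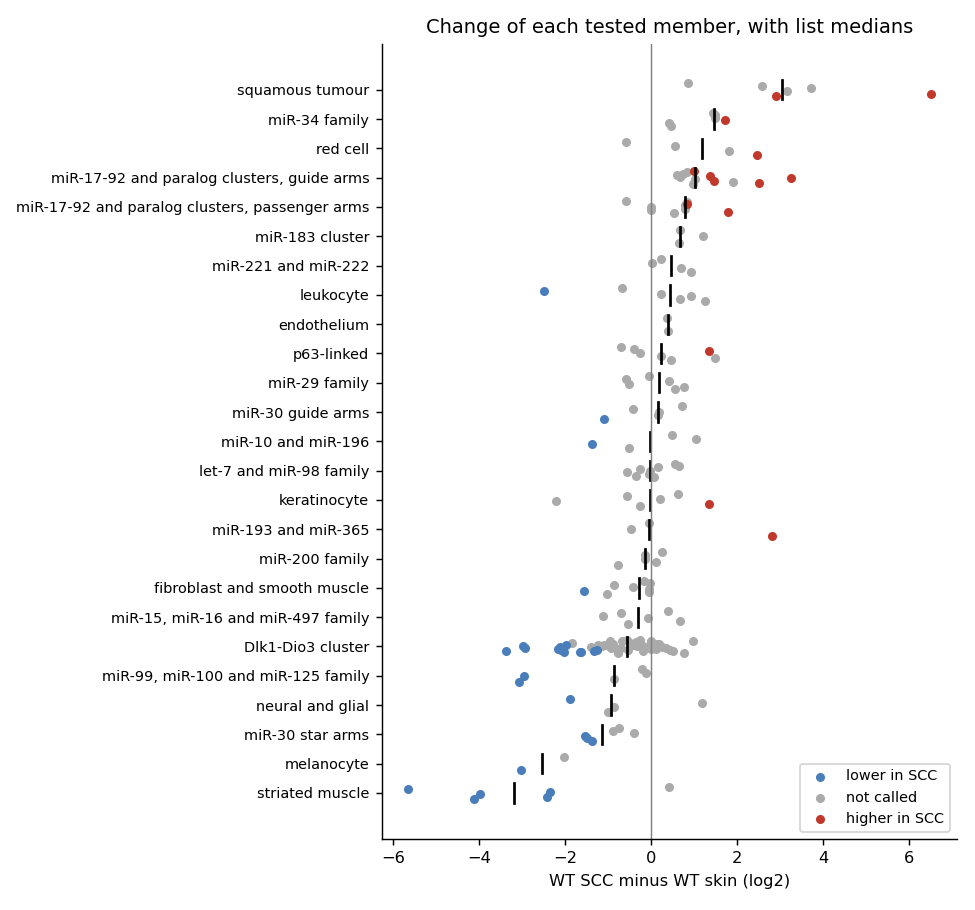
Difference between the wild-type tumour and skin means (log2, horizontal axis) of every tested member of each miRNA list, with lists ordered by their median (black bar). Red and blue points were called higher and lower in SCC and grey points were not called; the squamous tumour list has the highest median, 3.04, and the striated muscle list the lowest, -3.20.

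The miR-30 family was uneven between arms. Of its 6 tested star strands (3p) 3 fell and all 6 differences were negative (median -1.13). Of its 5 guide strands (5p) only miR-30a-5p fell (-1.10 ± 0.30). The share that fell over all 544 miRNAs was 9.38%. miR-30a-3p fell by 1.38 ± 0.36, miR-30b-3p by 1.497 ± 0.40 and miR-30c-1-3p by 1.55 ± 0.40. None of these 4 calls was kept without WT SCC replicate 1 (adjusted p = 0.226, 0.104 and 0.229 for the star strands in that order and 0.258 for miR-30a-5p). Without WT skin replicate 1 the values were 0.0729 for miR-30a-3p, 0.0876 for miR-30b-3p and 0.0852 for miR-30a-5p, without WT skin replicate 2 they were 0.0621 for miR-30b-3p and 0.075 for miR-30a-5p, and without WT skin replicate 3 they were 0.07 for miR-30a-3p and 0.0725 for miR-30c-1-3p. miR-30b-3p was also not called without WT SCC replicate 2 (0.0843). In the wild-type libraries alone miR-30a-3p (0.125), miR-30a-5p (0.125) and miR-30c-1-3p (0.13) were not called.

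The balance between the arms of 1 hairpin was tested as the log2 level of the 5p arm minus that of the 3p arm. Where both arms are above the floor, transcription of the hairpin does not set this quantity by itself. The balance differed between tumours and skin in 45 of 147 hairpins (30.6%), 20 toward the 5p arm and 25 toward the 3p arm. The identical hairpins miR-299a and miR-299b are both counted, so the 45 are 44 separate measurements. Among the 84 hairpins with both arms above the floor in all 5 libraries 29 were called. In the other called hairpins an arm was at the floor in some library, and its level there is not known. Their calls can reflect a change of the other arm alone and do not show a shift between arms. In miR-1199 the 5p arm and the balance both differed by 2.25, and the 3p arm by 0.00. Without WT SCC replicate 1 the count was 15 of 147. In 9 hairpins both arms were themselves called in the same direction, in none in opposite directions, and in 43 a single arm was called.

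In miR-423 the more abundant arm changed over. Its 5p arm had 9.73, 9.82 and 10.30 in skin and 9.41 and 9.43 in the tumours, a difference that was not called (-0.53 ± 0.32, adjusted p = 0.309). Its 3p arm had 8.40, 8.28 and 9.75 in skin and 11.50 and 11.05 in the tumours (2.47 ± 0.45, adjusted p = 0.00459; 0.0568 without WT SCC replicate 1). The balance therefore went from 1.33, 1.54 and 0.55 in skin to -2.09 and -1.62 in the tumours (-2.99 ± 0.40), with no overlap. In 4 of the called hairpins 1 arm was the more abundant in all 3 skin libraries and the other in both tumours. Beside miR-423 these were miR-145a (1.76 ± 0.49, adjusted p = 0.0146), miR-151 (-1.34 ± 0.40, 0.0207) and miR-212 (-2.56 ± 0.51, 0.00198), the last with an arm at the floor in some library. In skin the arms were nearly equal in miR-145a (balance -0.11, -0.15 and -0.14) and in miR-151 (0.11, 0.36 and 0.31). In the tumours the balance was 1.92 and 1.33 in miR-145a and -1.60 and -0.55 in miR-151. Without WT SCC replicate 1 miR-145a (0.124) and miR-151 (0.261) were not called, and miR-151 was also not called without WT skin replicate 2 (0.0613) or in the wild-type libraries alone (0.071).

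In miR-21a the 5p arm stayed the more abundant, but its lead shrank from 9.87, 11.65 and 9.27 in skin to 6.29 and 7.03 in the tumours (-3.60 ± 0.70). In WT SCC replicate 1 the 5p arm held the top value fixed by the normalisation. Its level there cannot read higher, so the change in balance may be overstated. In miR-335, a miRNA of the imprinted Mest locus, both arms rose, the 5p by 1.31 ± 0.35 and the 3p by 3.06 ± 0.66, and the balance differed by -1.75 ± 0.55. Without WT SCC replicate 1 the 5p arm (adjusted p = 0.223), the 3p arm (0.123) and the balance (0.279) were not called. The 5p arm was also not called without WT skin replicate 1 (0.0591) or 3 (0.0743), nor the balance without WT skin replicate 2 (0.0613) or 3 (0.0637). In the wild-type libraries alone the 5p arm (0.0783), the 3p arm (0.0921) and the balance (0.0619) were not called. miR-322, of the miR-15 and miR-16 seed group, moved the other way: its balance rose by 2.46 ± 0.49 (adjusted p = 0.00207), with a difference of -2.06 ± 0.62 in its 3p arm and 0.40 ± 0.39 in its 5p arm. In miR-99b, whose 5p arm was not called, the balance differed by -2.25 ± 0.61, and was not called without WT SCC replicate 1 (adjusted p = 0.0732) or 2 (0.0624), or in the wild-type libraries alone (0.0619).

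**Figure D4:**
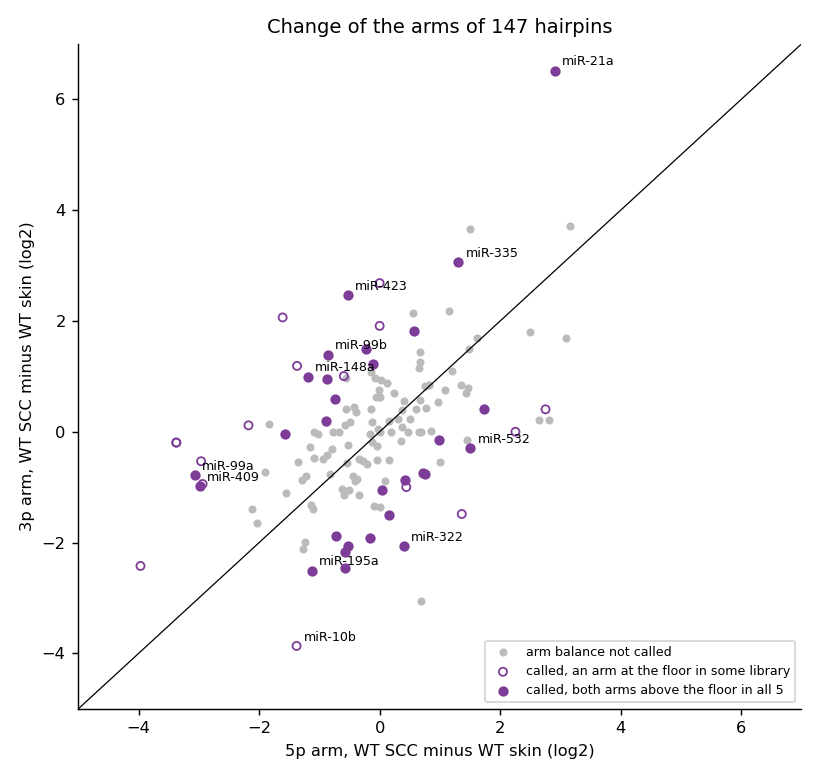
Difference between the wild-type tumour and skin means (log2) of the 3p arm (vertical axis) against that of the 5p arm (horizontal axis) for 147 hairpins. Filled purple points are the 29 called hairpins with both arms above the floor in all 5 libraries, open purple points the other called hairpins and grey points those not called; the diagonal marks equal change, and miR-21a and miR-423 lie above it.

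Summing the miRNAs that share a seed, 7 of 49 families rose (14.3%) and 8 fell (16.3%). The AUUGCAC family of miR-92a-3p, miR-92b-3p, miR-25-3p, miR-32-5p and miR-363-3p summed to 14.48, 14.22 and 14.98 in skin and 16.87 and 16.68 in the tumours (2.21 ± 0.33, adjusted p = 0.000557). Within it miR-92b-3p (-0.88 ± 0.54) and miR-32-5p (0.19 ± 0.34) were not called, and miR-92a-3p, the most abundant member in both tumours, had the largest difference. The AAAGUGC family of miR-17-5p, miR-20a-5p, miR-20b-5p, miR-93-5p and miR-106b-5p rose by 0.88 ± 0.26 as a sum (adjusted p = 0.0269), although miR-17-5p, miR-93-5p and miR-106b-5p were not called singly. That family was not called without WT SCC replicate 1 (adjusted p = 0.182) or WT skin replicate 1 (0.0822), 2 (0.089) or 3 (0.0654). The ACCCGUA sum of miR-99a-5p, miR-99b-5p and miR-100-5p fell by 1.34 ± 0.47, less than miR-99a-5p and miR-100-5p; miR-99b-5p, which was not called, was the most abundant of the 3 in all 5 libraries. Its adjusted p of 0.0494 rose to between 0.0612 and 0.282 in 8 of the 12 fits that left out 1 library, each of the wild-type libraries except WT skin replicate 3 among them, to 0.101 with median-ratio scaling and to 0.0691 without the variance trend. The UCCCUUU sum of miR-204-5p and miR-211-5p fell by 2.76 ± 0.62 (0.136 without WT SCC replicate 1).

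A few miRNAs crossed the floor. Above it in both tumours and in no wild-type skin library were 14 miRNAs, of which 10 were called, and above it in all 3 skin libraries and in neither tumour were 7, of which 4 were called. Over all 544 miRNAs 8.82% were called higher and 9.38% lower. Picking miRNAs this way separates the groups beforehand, so these counts of calls are no separate result. The clearest gain was miR-5130, at the floor in skin and at 8.18 and 8.56 in the tumours, and the clearest loss was miR-3470b, at 7.59, 8.40 and 7.72 in skin and at the floor in both tumours. miR-132-5p, the passenger strand of a CREB-induced hairpin, was at the floor in skin and at 4.71 and 4.81 in the tumours, and miR-218-1-3p was at 5.42, 5.77 and 5.33 in skin and at the floor in both tumours. Values at the floor do not vary, which may make the SE and p of these miRNAs too small, and no fold is given against the floor.

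miR-5105 had 5.82, 4.85 and 6.20 in skin and 10.15 and 10.06 in the tumours (4.49 ± 0.68, adjusted p = 0.00201). Some of the other large rises were in miRNAs rich in G and C. miR-6538 had 6.35, 6.50 and 6.17 in skin and 10.60 and 10.27 in the tumours (4.10 ± 0.79, adjusted p = 0.00644; 0.0653 without WT SCC replicate 1), and 94.7% of its bases are G or C, against 83.3% of miR-5130. Over the miRNAs with a mature sequence in RefSeq, the median G and C content was 54.5% in 39 called higher, 47.6% in 41 called lower and 47.8% in all 445 tested. Of the 18 tested with a content over 70%, 4 were called (22.2%), all higher. Of all 445, 80 were called in either direction (18%) and 39 were called higher (8.76%). The part of base composition in these values was not tested.

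The 2 tumours differed from each other more than the skin libraries did. Over the 334 miRNAs above the floor in all 5 libraries, the median absolute difference was 0.50 between the tumours and 0.21 to 0.38 between pairs of skin libraries. In 76 of the 99 called miRNAs WT SCC replicate 2 was the closer to skin. This was not counted over all 544 miRNAs, so it is not shown to be particular to the called ones. The tumours differed from each other by at least 8-fold in 15 miRNAs, 11 of them higher in WT SCC replicate 1. The 11 include pairs with identical rows: miR-467a-5p with miR-467b-5p, miR-467a-3p with miR-467d-3p, and miR-669a-3p with miR-669o-3p. Each such pair is 1 measurement. The p53-induced miR-34c-5p, which had 9.82, 10.69 and 11.05 in skin, was at 13.20 in WT SCC replicate 1 and at 10.80, inside the skin range, in WT SCC replicate 2 (1.48 ± 0.62, adjusted p = 0.125). Of the 6 tested miR-34 family miRNAs, all with a positive difference (median 1.46), 1 was called, where 8.82% of all 544 were called higher. This was miR-34b-5p (1.73 ± 0.54, adjusted p = 0.0485), which was not called in every leave-one-out fit. It lay above the skin mean by 2.62 in WT SCC replicate 1 and by 0.84 in WT SCC replicate 2.

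**Figure D5:**
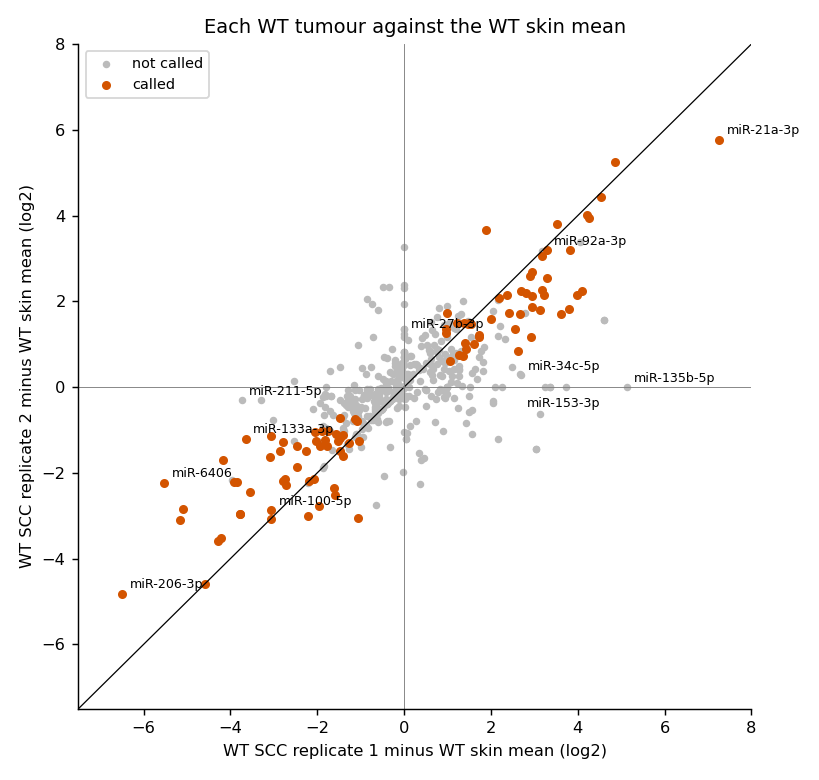
Value of WT SCC replicate 2 minus the wild-type skin mean (log2, vertical axis) against the same for WT SCC replicate 1 (horizontal axis), for the 544 miRNAs tested. Both axes subtract the same skin mean; orange points are the 99 called miRNAs, grey points the rest, and the diagonal marks equal change; miR-135b-5p and miR-153-3p were above the floor in WT SCC replicate 1 alone among the 5 libraries.

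No miRNA was shown to respond differently in wild-type and TAp63-/- mice. The interaction of tissue and genotype was called for 0 of 544 miRNAs (0%), the lowest adjusted p being 0.173, and 41 had an unadjusted p under 0.05. With WT SCC replicate 2 left out 11 were called, and with WT SCC replicate 1 or TAp63-/- SCC replicate 2 left out 1 was called each time. Of the 99 miRNAs called in wild-type mice, 96 had the same sign in TAp63-/- tumours against TAp63-/- skin, and 77 (77.8%) were also called there. The group means come from other libraries, but both comparisons use 1 estimate of spread, so their calls are not independent. Age and UVR exposure changed with tumour state in the TAp63-/- mice too. Over all 544 miRNAs 186 were called in the TAp63-/- comparison (34.2%), and of the 488 with a difference other than 0 in both comparisons 389 (79.7%) had the same sign. miR-206-3p differed by -5.65 in wild-type and -6.76 in TAp63-/- mice. miR-21a-5p held the top value fixed by the normalisation in WT SCC replicate 1 and in all 4 TAp63-/- tumours, so its differences cannot be compared between genotypes.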

How the data were processed

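Small RNA was sequenced in 12 libraries, of which 5 enter the comparison and all 12 the estimate of spread. Total RNA came from frozen tissue, per the labels' protocols. The authors deposited log2 values, which were used as deposited. From the values, these log2 data were quantile normalised and floored at the log2 of 10. The genome was mm10, per the submitters' processing notes. Aligner, counting tool and miRNA annotation: not given in the sources used here. Library depth is unknown. All 12 columns matched a sample.

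miRNAs that passed the floor in 2 or more libraries (544) were fitted with limma 3.58.1 (R 4.3.3), with a mean per group and moderated variances with trend and robust steps (8 residual degrees of freedom). Intervals are at 95%. Contrasts were wild-type SCC minus wild-type skin and its interaction with genotype. Seed-family values are log2 of summed linear values for miRNAs sharing bases 2 to 8 (49 families), and arm balance is the difference of the arms (147 hairpins, no trend). Benjamini-Hochberg adjustment ran over all features tested, with a threshold of 0.05. The fits were tested on simulated data. Mature sequences and hairpin positions are from RefSeq (GRCm38.p6, 445 of 544 tested miRNAs matched by name) and host genes from GENCODE vM21. Coordinates are 1-based.

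The members, lists and naming rule were chosen with earlier results of these data known. The rule names up to 15 called miRNAs each way among the upper 40% by mean, members of the squamous, miR-17-92, p63-linked, keratinocyte and muscle lists, up to 4 of each other list, miRNAs that crossed the floor, the 10 most abundant, and leading arm pairs and families. Other names, and the lead given to miRNAs called in every leave-one-out fit, were chosen after their values were seen. Alternatives were the 5 wild-type libraries alone, other scalings, pseudocounts, filters and variance models, library weights, a replicate block, a 2-fold minimum and leaving out each library.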

Additional observations from a re-analysis of the deposited data

How the results depend on the processing

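Depth is unknown, values at the floor have no spread and differences against it are understated, and 2 tumours limit what the comparison can show. Of the 99 called miRNAs, 18 were called under every alternative tried. In the 5 wild-type libraries alone 62 miRNAs were called (29 higher, 33 lower) and arm balance in 20 hairpins. Leaving out 1 library gave 32 to 118 called miRNAs (14 to 63 higher, 18 to 55 lower), 3 to 19 seed families, 15 to 51 arm pairs and 0 to 11 interactions; the lowest counts were without WT SCC replicate 1, except for the interaction. The sample titles share the numbers 1 and 2 between the wild-type groups, but the source names differ and the deviations of same-numbered libraries correlated at -0.12 and 0.13, so the numbers were not taken as a pairing. With the number as a replicate block over all 12 libraries 41 miRNAs (20 higher, 21 lower) and 7 seed families were called, with miR-299a-3p at 0.0237 and miR-32-5p at -0.0033. In that block WT skin replicate 3 shares its number with a TAp63-/- tumour. The differences of miR-299a-3p, miR-32-5p, miR-18a-5p (2.08) and miR-30a-3p (-1.24) were the same as without WT skin replicate 3. For these the block gave no separate estimate. The other scalings, pseudocounts, filters, variance models and weights gave 95 to 106 called miRNAs, and 96 with a 2-fold minimum. Among arm pairs refitted with both arms above the floor in all 5 libraries, an alternative chosen after seeing the data, 31 were called. Over all 544 miRNAs the sign of 102, none of them called, turned in at least 1 fit that left out a library. Of the miRNAs named here 4 did so: over those fits miR-486-5p ran from -1.20 to 0.0468 (without WT SCC replicate 2), miR-299a-3p ran from -0.36 to 0.0237, miR-32-5p from -0.0033 (without WT skin replicate 3) to 0.29, and miR-363-3p from -0.85 to 2.06. The cause of these changes was not tested.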
